A study of Mus musculus with 6 samples.

Results

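Expression of 9 complement genes was measured in B cells of the mouse lung: the 3 chains of C1q (C1qa, C1qb and C1qc), the central component C3, factor B (Cfb), properdin (Cfp), the anaphylatoxin receptors C3ar1 and C5ar1, and Cd55, which protects cells from complement. They were taken by symbol from the deposited table of mRNA transcripts, each gene as its transcript of the highest mean over the 6 libraries, and made up 9 of the 21774 genes in that table. The cells came from dissociated lung of wild-type (WT) mice by selection with B220 microbeads, with 3 libraries labelled control and 3 labelled severe asthma. Severe asthma mice were first dosed through the trachea, in 35 μl of PBS, with house dust mite allergen (HDM, 25 μg) plus bacterial lipopolysaccharide (LPS, 10 μg), daily from day 0 to day 2, and then HDM without LPS (25 μg) in 8 daily doses that ran from day 7 to day 14. Control mice received PBS only. Whether the libraries of a group come from different animals is not in the labels, so each p-value covers the variation among these libraries, part of which may be technical. B220 is a form of the surface protein encoded by Ptprc, and it is also found on some cells other than B cells, such as plasmacytoid dendritic cells.

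Complement is a cascade of plasma proteins that tags and lyses targets and calls in leukocytes. C1q binds antibody on a surface and starts the classical pathway, factor B and properdin build and hold the convertase of the alternative pathway, and both routes cleave C3. The fragments C3a and C5a act on leukocytes through their receptors, while Cd55 (decay-accelerating factor) takes convertases apart on the cell's own membrane. Liver makes most circulating components, macrophages and dendritic cells make most C1q, and B cells bind C3 fragments through the complement receptors encoded by Cr2. RNA of C1q or of an anaphylatoxin receptor in a B220 selection can thus come from B cells or from other cells in the tube, and in such bulk samples more cells of a type and more RNA per cell cannot be told apart.

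Reads over the mRNA genes, each as its transcript of the highest mean, came to 16498219 to 18054903 per library. The 10 genes listed as B cell markers were abundant in every library. Their summed level was 151859 to 213173 in control and 209255 to 228051 in severe asthma (library-size-adjusted reads), with the lowest sum in control 1. Of the 10, 2 rose and 0 fell. Markers of other cell types moved with the groups. Of 14 genes of monocytes and macrophages 11 rose and 0 fell, and their sum was 11976 to 25785 in control and 93967 to 149513 in severe asthma. Of 12 alveolar macrophage genes 5 rose and 1 fell (sums 2712 to 8994 and 21171 to 82537). Of 8 endothelial genes 0 rose and 8 fell (15773 to 42498 and 5273 to 8042), of 10 genes of lung epithelium 0 and 8 (23949 to 70094 and 4555 to 9916), and of 10 fibroblast and smooth muscle genes 0 and 6 (5392 to 18613 and 1263 to 2801). Neutrophil genes (2 rose and 2 fell of 10, sums 362 to 549 and 465 to 518), dendritic cell genes (3 and 2 of 8, 1090.2 to 1423 and 1814 to 2321) and genes of T and NK cells (1 and 0 of 9, 985 to 1374 and 1348 to 1574) shifted less in their sums. The dendritic cell sums still did not overlap. Of the 3 most abundant dendritic cell genes, Siglech and Flt3 rose (log2 fold changes 0.881 and 2.255, limma adjusted p = 0.00203 and 0.000216). Clec9a fell (-1.173, limma adjusted p = 0.0242). No marker of these lists that was in the table was at 0 in all libraries.

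Of the 9 genes, 3 rose in severe asthma (C3ar1, C1qb and Cfb) and 1 fell (Cd55) at an adjusted p under 0.05 over all genes, by limma with Benjamini-Hochberg adjustment, and 5 did not pass. Of all 15759 genes tested, 20.7% rose and 14.4% fell, 35.1% in either direction. In 7 of the 9 every severe asthma library lay above every control library and in 1 below, which was so for 31.6% and 21.6% of all genes tested, or 53.3% in either direction. The 4 of 9 genes past the threshold lie near the share of all genes, and nothing is read from that count. With each library scaled to the same total, 38.3% of the calls over all genes were rises, against 59.0% in the fit used here, and the median over all genes moved from 0.06 to -0.08 (log2). The direction of each of the 9 genes was the same under both scalings. Two-sided exact permutation tests of single genes cannot go below p = 0.1 with 3 against 3 libraries, and 8 of the 9 genes reached that value, C5ar1 having p = 0.4.

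**Figure D1:**
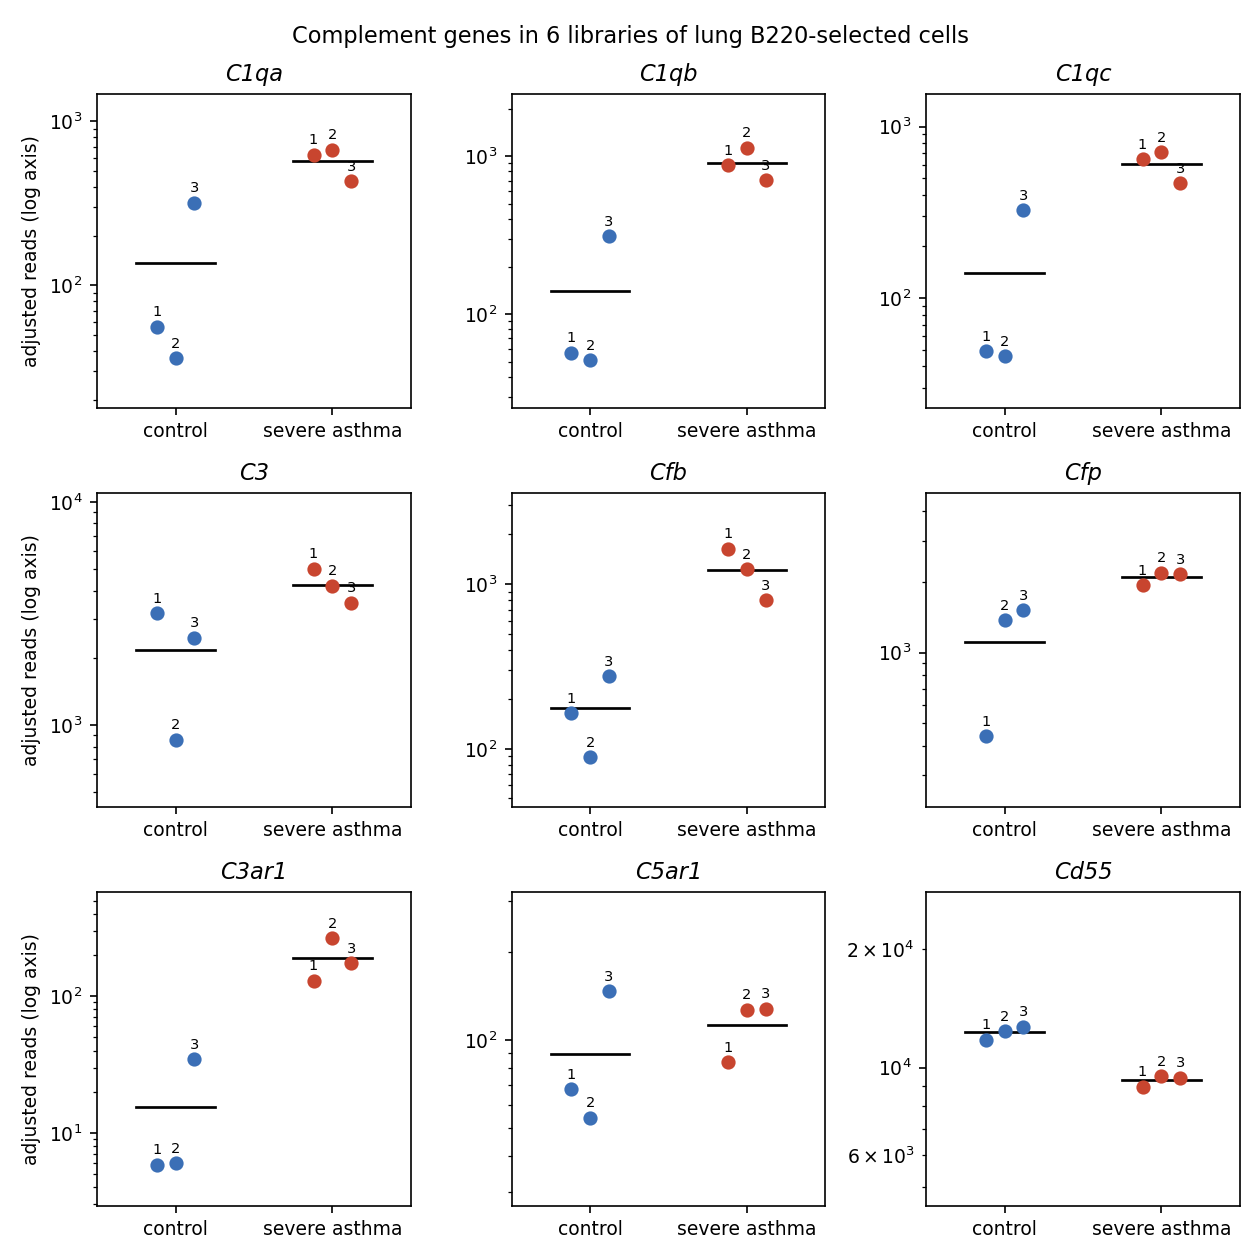
Library-size-adjusted reads of 9 complement genes in each library (log axis, 1 panel a gene, axes differ). Points are libraries, with the replicate number beside them, and black bars are group means (n = 3). In C1qa, C1qb, C1qc and C3ar1, control 3 lay far above controls 1 and 2, and the groups overlapped only for C5ar1.

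The 250 bases before the start, from RefSeq's promoter table (build GRCm38.p6), are shown for a C1q chain gene (C1qb), an anaphylatoxin receptor gene (C3ar1) and C3. They were picked by hand, as 1 example of each of these roles, among genes whose window ends at the annotated start of the gene. The window of Cfp, of the alternative pathway, also ends there. It held no match to the motifs named below and is not shown. The window of Cd55 (130462745 to 130462994 on chromosome 1) lies inside that gene's annotated span and is not shown. The table held entries for 7 of the 9, and C1qa and Cfb were not among them. All are on the minus strand and are written 5′ to 3′ along the gene, with capitals for matches, on either strand, to 5 motifs of factors of myeloid cells and inflammation: TGCTGA (MAF), GAGGAA (PU.1), TTGCNNAA (C/EBP), TGANTCA (AP-1) and an interferon response motif. The motifs were chosen after the sequences had been seen.
C1qb, chr4:136886201-136886450: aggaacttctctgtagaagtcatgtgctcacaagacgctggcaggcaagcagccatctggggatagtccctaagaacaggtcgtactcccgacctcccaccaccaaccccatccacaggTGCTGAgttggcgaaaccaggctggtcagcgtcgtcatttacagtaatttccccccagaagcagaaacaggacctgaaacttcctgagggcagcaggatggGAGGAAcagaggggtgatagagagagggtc
C3ar1, chr6:122856158-122856407: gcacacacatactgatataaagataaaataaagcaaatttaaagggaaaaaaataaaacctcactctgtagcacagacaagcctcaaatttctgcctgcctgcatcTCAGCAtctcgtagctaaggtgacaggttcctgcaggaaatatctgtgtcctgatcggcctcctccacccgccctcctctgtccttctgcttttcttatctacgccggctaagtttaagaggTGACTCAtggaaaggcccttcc
C3, chr17:57228137-57228386: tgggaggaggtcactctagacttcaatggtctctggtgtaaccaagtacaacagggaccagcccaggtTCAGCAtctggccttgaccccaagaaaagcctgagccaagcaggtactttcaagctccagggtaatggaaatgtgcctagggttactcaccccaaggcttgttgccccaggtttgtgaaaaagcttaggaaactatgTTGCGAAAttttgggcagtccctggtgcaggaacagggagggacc
The C1qb window held TGCTGA from 131 to 126 bases before the start and GAGGAA from 30 to 25 bases before it. The C3ar1 window held TGCTGA on the opposite strand (144 to 139 bases before the start) and an AP-1 match at 22 to 16. In C3 the matches were TGCTGA on the opposite strand (182 to 177) and a C/EBP match at 45 to 38. Of the 32851 windows of this length in the table, 16.1% held TGCTGA, 23.3% GAGGAA, 9.56% TTGCNNAA, 6.75% TGANTCA and 2.98% the interferon response motif. No 2 of the marked matches in these windows overlap. A match describes the letters in this window and is no evidence of binding.

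C1q RNA was higher in every severe asthma library, but the controls differed widely and only C1qb passed the test. The 3 genes lie side by side on the minus strand of chromosome 4 in mm10: C1qb from 136880126 to 136886200, C1qc from 136889801 to 136892936 and C1qa from 136895916 to 136898844, with gaps of 3600 and 2979 bases. Each encodes 1 of the chains that assemble into the C1q protein.

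C1qb stood at 56.9, 51.0 and 312 adjusted reads in controls 1 to 3 and at 879.7, 1134 and 704 in severe asthma libraries 1 to 3. Control 3 was the high one of its group, and the groups did not overlap. Group means were 140.0 ± 149 and 906 ± 216 (SD, n = 3), a log2 fold change of 3.18 (SE 0.744, 95% interval 1.31 to 5.05, adjusted p = 0.0257). This call was lost with the replicate number as a block (adjusted p = 0.0683), without control 1 (0.117), control 2 (0.0588) or any of severe asthma 1, 2 and 3 (0.0529, 0.0799 and 0.0697), and without both libraries numbered 1 (0.246). Without control 3 it had an adjusted p of 0.000189 and a log2 fold change of 4.02.

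C1qa stood at 56.0, 36 and 319 in control and 626, 671 and 432 in severe asthma. C1qc stood at 49.1, 46.0 and 325 in control and 645, 708 and 467 in severe asthma. Both showed the pattern of C1qb, with control 3 several times above the other controls and still below every severe asthma library. The log2 fold change was 2.69 for C1qa (SE 0.839, 95% interval 0.582 to 4.80, adjusted p = 0.0575) and 2.71 for C1qc (SE 0.807, 95% interval 0.681 to 4.74, adjusted p = 0.0507), so neither passed the threshold. Both passed without control 3 (adjusted p = 0.000538 for C1qa and 0.000252 for C1qc, log2 fold changes 3.63 and 3.63), with limma-voom (0.0297 and 0.0257) and over genes with a mean of at least 10 (0.0437 and 0.0382). C1qc also passed with a pseudocount of 4 (0.0471) and as the mean of its transcripts (0.0488). The authors' deposited table gives log2 fold changes of 2.07, 2.70 and 2.12 for C1qa, C1qb and C1qc, with q-values of 0.00336, 8.96e-06 and 0.00194.

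Per length, the 3 chains had similar means in control, and C1qb had the highest mean in severe asthma. Per kilobase of transcript, the control means of C1qa, C1qb and C1qc were 132, 129 and 114 adjusted reads and the severe asthma means 554, 833 and 496, with C1qc read here from NM_007574 and not from the transcript of the highest mean used elsewhere. On the log2 scale C1qc minus C1qa was 0.06 ± 0.27 in control and 0.08 ± 0.04 in severe asthma (SD, n = 3), a difference of 0.02. C1qb minus C1qa was 0.16 ± 0.29 in control and 0.65 ± 0.14 in severe asthma, a difference of 0.49 that the two-sided exact permutation test did not separate (p = 0.2). Controls 1 to 3 held 0.025, 0.491 and -0.034, and severe asthma libraries 0.491, 0.757 and 0.706, so control 2 was level with the lowest severe asthma library.

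The genes whose profile over the 6 libraries was nearest to that of C1qb, among genes with a mean of at least 100, were F13a1, the A chain of coagulation factor XIII, with a root mean square difference of 0.174 (log2), Clec4n, the lectin receptor dectin-2 (0.254), and Ms4a6d (0.280). Their log2 fold changes were 2.94, 3.15 and 2.90. All 3 had control 3 as the highest control, as F13a1 shows with 25.5, 24.0 and 119 in controls 1 to 3 and 365, 400 and 246 in severe asthma.

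C1q moved with 4 macrophage genes of the same libraries. The mean log2 level of 4 macrophage genes (Cd68, Csf1r, Adgre1 and Fcgr1) was 7.13, 6.42 and 8.06 in controls 1 to 3 and 9.39, 9.91 and 9.501 in severe asthma, a difference of 2.40. The mean log2 level of the 3 C1q genes differed by 2.86. Relative to these macrophage genes, C1q stood at -1.35, -0.93 and 0.26 in controls 1 to 3 and at 0.08, -0.24 and -0.47 in severe asthma, so the groups overlapped and control 3 held the highest value. The difference was 0.46 (two-sided exact permutation test, p = 0.5). It was 0.123 without control 1 and 0.925 without control 3, and turned to -0.022 without both libraries numbered 1. Ms4a7 and Trem2, further macrophage genes, were also highest in control 3 among the controls (47.6 against 6.84 and 2.00 for Ms4a7, 108 against 20.6 and 4 for Trem2). Not all macrophage genes were. Lyz2, the most abundant of those listed, was highest in control 1 (15671, against 14285 in control 3). What share of the C1q RNA came from macrophages was not tested.

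**Figure D2:**
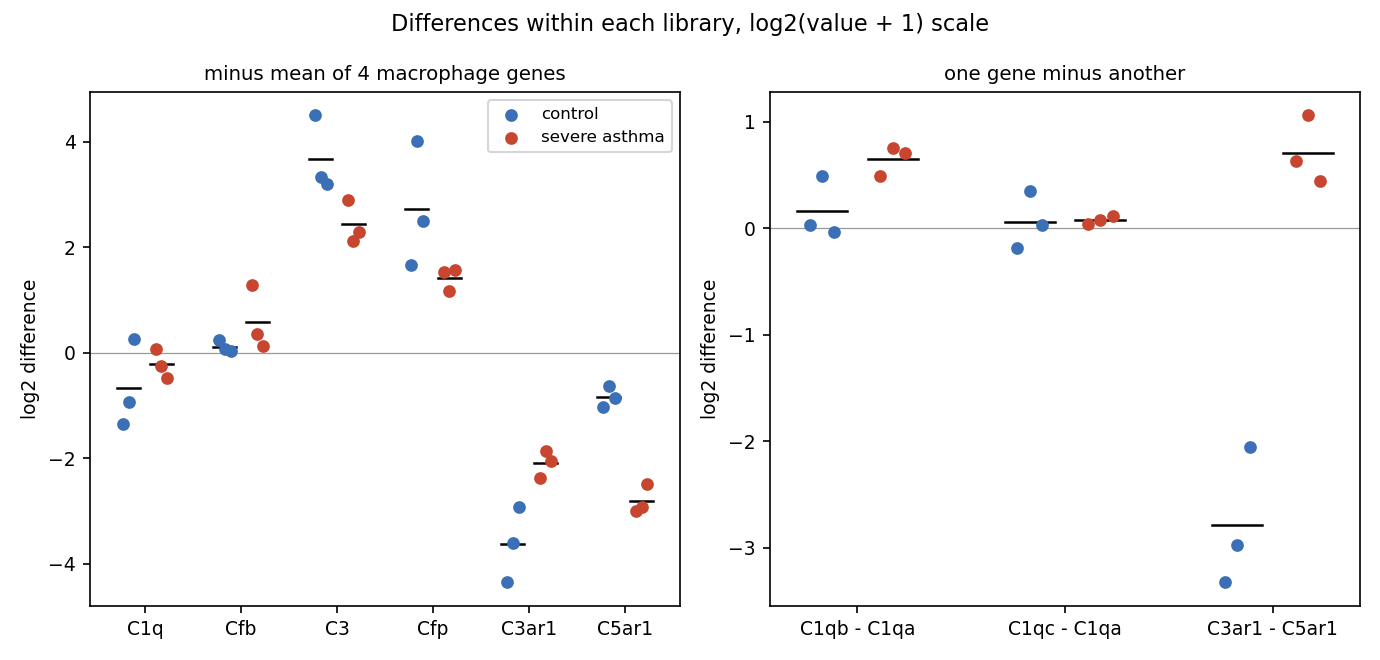
Differences within each library on the log2(value + 1) scale: left, C1q (mean of its 3 genes) and 5 other genes minus the mean of 4 macrophage genes, right, pairs of genes. Points are libraries and bars group means (n = 3). C1q and Cfb overlapped between the groups, C3ar1 was higher relative to these 4 macrophage genes in all severe asthma libraries than in any control, and C3, Cfp and C5ar1 were lower.

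C3, the component on which all pathways converge, was higher in every severe asthma library but did not pass the test. It lies on chromosome 17 from 57203967 to 57228136 (mm10, minus strand). Its values were 3173, 860.2 and 2461 in controls 1 to 3 and 5007, 4209 and 3536 in severe asthma, with control 2 the low one and no overlap between the groups. The mean was 2164 ± 1184 in control and 4251 ± 736 in severe asthma (SD, n = 3), a log2 fold change of 1.16 (SE 0.512, 95% interval -0.131 to 2.44, adjusted p = 0.138). Without control 2 it passed, at a smaller log2 fold change of 0.59 (adjusted p = 0.046). The authors' deposited table gives 0.97 with a q-value of 0.0136. Control 2 also held the lowest sums, among controls, of the macrophage, alveolar macrophage, epithelial, endothelial and fibroblast markers, and their part in the low C3 value was not tested.

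The profile of C3 was nearest to those of Nrp2, a co-receptor for class 3 semaphorins and vascular growth factors (root mean square difference 0.238), Spsb1 (0.272) and Tubb6, a beta-tubulin (0.275). Each of them had its lowest value in control 2, as C3 did. Relative to the 4 macrophage genes, C3 was lower in severe asthma, with a log2 difference of -1.24 (3.68 ± 0.72 to 2.44 ± 0.41, SD, n = 3, two-sided exact permutation test p = 0.1, the smallest possible).

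Cfb, the factor B gene of the alternative pathway (chromosome 17, 34856374 to 34862514, minus strand), rose. It stood at 164, 89.0 and 275 in controls 1 to 3 and at 1634, 1234 and 797 in severe asthma. The groups did not overlap, and the lowest severe asthma library was well above the highest control. The log2 fold change was 2.87 (SE 0.481, 95% interval 1.66 to 4.08, adjusted p = 0.0106). The call was lost without control 1 (adjusted p = 0.0554) and without both libraries numbered 1 (0.145). The 4 Cfb transcripts in the table share most of their reads and had log2 fold changes of 2.87 to 2.90. GENCODE annotates Gm20547 on the same strand over exons of Cfb, and how the counting treated reads there is not given in the sources used here. Minus the 4 macrophage genes, Cfb was 0.24, 0.08 and 0.04 in controls 1 to 3 and 1.28, 0.36 and 0.14 in severe asthma. Severe asthma 1 stood apart and the groups overlapped (difference 0.47, two-sided exact permutation test p = 0.2).

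Cfp encodes properdin, which stabilises the alternative convertase (chromosome X, 20925454 to 20931555, minus strand). Its values were 441, 1374 and 1514 in controls 1 to 3 and 1938, 2187 and 2157 in severe asthma. Control 1 was low, and the other 2 controls lay close to the severe asthma libraries without reaching them. The log2 fold change was 1.10 (SE 0.494, 95% interval -0.138 to 2.35, adjusted p = 0.141). Without control 1 it was 0.54 and passed (adjusted p = 0.000929). Control 1 also held the largest sums of the epithelial, endothelial and fibroblast markers and the smallest sum of the B cell markers, and the part of these in the low Cfp value was not tested. Minus the 4 macrophage genes, Cfp was 1.66, 4.01 and 2.50 in controls 1 to 3 and 1.53, 1.18 and 1.57 in severe asthma. The groups did not overlap, although control 1 lay close to the severe asthma libraries (difference -1.30, two-sided exact permutation test p = 0.1, the smallest possible).

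The anaphylatoxin receptors differed from each other. C3ar1, the C3a receptor gene (chromosome 6, 122847140 to 122856157, minus strand), was near the limit of counting in the controls, with 6, 6 and 37 reads before adjustment against 124, 249 and 176 in severe asthma. After adjustment it stood at 5.86, 6 and 34.5 in controls 1 to 3 and 129.7, 265 and 175 in severe asthma. Every severe asthma library was several times above the highest control, which was again control 3. The log2 fold change was 3.94 (SE 0.675, 95% interval 2.34 to 5.53, adjusted p = 0.0071), rank 43 from the top among the fold changes of all 15759 genes. The call was lost without both libraries numbered 1 (adjusted p = 0.106). The authors' deposited table gives 3.61 (q-value 1.17e-07) for C3ar1, 0.33 (q-value 0.754) for C5ar1 and, in the alternative pathway, 2.79 (q-value 6.49e-13) for Cfb and 0.92 (q-value 0.018) for Cfp.

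C5ar1, the C5a receptor gene (chromosome 7, 16246743 to 16259540, minus strand), stood at 67.8, 54.0 and 147 in controls 1 to 3 and at 83.7, 127 and 128 in severe asthma. The highest value was that of control 3, and the groups overlapped. Its log2 fold change was 0.44 (SE 0.383, 95% interval -0.449 to 1.33, adjusted p = 0.405), an interval that leaves room for a more than 2-fold rise.

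Within a library, log2 C3ar1 minus log2 C5ar1 was -3.33, -2.97 and -2.06 in controls 1 to 3 and 0.63, 1.06 and 0.45 in severe asthma. The groups did not overlap, and the difference was 3.50 (two-sided exact permutation test, p = 0.1, the smallest possible). With Benjamini-Hochberg adjustment over 13 such per-library quantities, that p was 0.144. Reads were not adjusted here for transcript length (4305 bases for C3ar1, 2540 for C5ar1). The sign of a value thus does not tell which gene was higher per length. This pair was chosen after its values were seen. Of the 13 quantities, only C1q relative to the macrophage genes and Cd55 relative to the B cell genes were planned. Every one with an exact permutation p of 0.1 had an adjusted p of 0.144, those of C3, Cfp, C3ar1 and C5ar1 relative to the macrophage genes included. Relative to the 4 macrophage genes, C3ar1 was higher in severe asthma, with a log2 difference of 1.53, and C5ar1 was lower, at -1.96 (from -0.84 ± 0.20 to -2.80 ± 0.27, SD, n = 3), each with the groups apart (two-sided exact permutation test, p = 0.1). Log2 fold changes within the list of 14 macrophage genes ran from 0.39 to 4.94. Those of the C1q genes, Cfb, C3ar1, C5ar1, C3 and Cfp all lay in that range, so the sign of such a difference depends on the genes it is taken against. Per kilobase, C5ar1 exceeded C3ar1 in control (35.3 against 3.59 adjusted reads) and the means were 44.4 and 44.1 in severe asthma. Over the severe asthma libraries C5ar1 ran from 32.9 to 50.4 and C3ar1 from 30.1 to 61.6, so neither was higher throughout.

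Cd55 was by far the most abundant of the 9 genes and the only one that fell. Its values were 11772, 12368 and 12705 in controls 1 to 3 and 8945, 9507 and 9439 in severe asthma, a narrow spread in both groups with no overlap. Group means were 12281 ± 472 and 9297 ± 307 (SD, n = 3), a log2 fold change of -0.40 (95% interval -0.562 to -0.240, adjusted p = 0.00576), or 0.757 of the control level. The call held in all 19 alternatives run, with adjusted p from 3.68e-19 to 0.0328 and log2 fold changes of -0.547 to -0.374. Per kilobase, Cd55 was at 3558 ± 218 adjusted reads in control and 2697 ± 78.5 in severe asthma (SD, n = 3), against at most 1280 on average for any other of the 9 genes. This value is of NM_010016, a Cd55 transcript of lower mean than the one above, because lengths were taken from GENCODE for transcripts it matches to a RefSeq mRNA.

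Cd55 fell while 3 B cell genes, Cd79a, Cd79b and Ms4a1, were higher (log2 fold changes 0.41, 0.29 and 0.58). These 3 lay above the median of the 10 B cell genes listed (0.18), and not every gene of that list was higher in severe asthma. The mean log2 level of these 3 was higher by 0.43, which makes up part of the difference given below. Relative to the mean of Cd79a, Cd79b and Ms4a1, log2 Cd55 stood at -0.35, -1.04 and -0.85 in controls 1 to 3 and at -1.52, -1.60 and -1.60 in severe asthma, with no overlap. The difference was -0.83 (two-sided exact permutation test, p = 0.1, the smallest possible) and ranged from -0.976 to -0.630 when libraries were left out. Control 1, in which these 3 B cell genes were lowest, had the highest relative value. All 4 mRNA transcripts of Cd55 were lower, with log2 fold changes of -0.41 to -0.35, and the authors' deposited table of non-coding transcripts gives -0.51 and -0.53 for 2 further Cd55 transcripts. Isoforms share reads, so these are not separate measurements. Cd55 lies on chromosome 1 from 130429798 to 130465009 (minus strand) next to its close copy Cd55b, which stood at 77.7 ± 4.02 in control and 69.2 ± 32.6 in severe asthma and with which reads could be shared. An antisense RNA, Gm16083, overlaps Cd55 exons, and the sources used here do not say whether strand was kept.

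**Figure D3:**
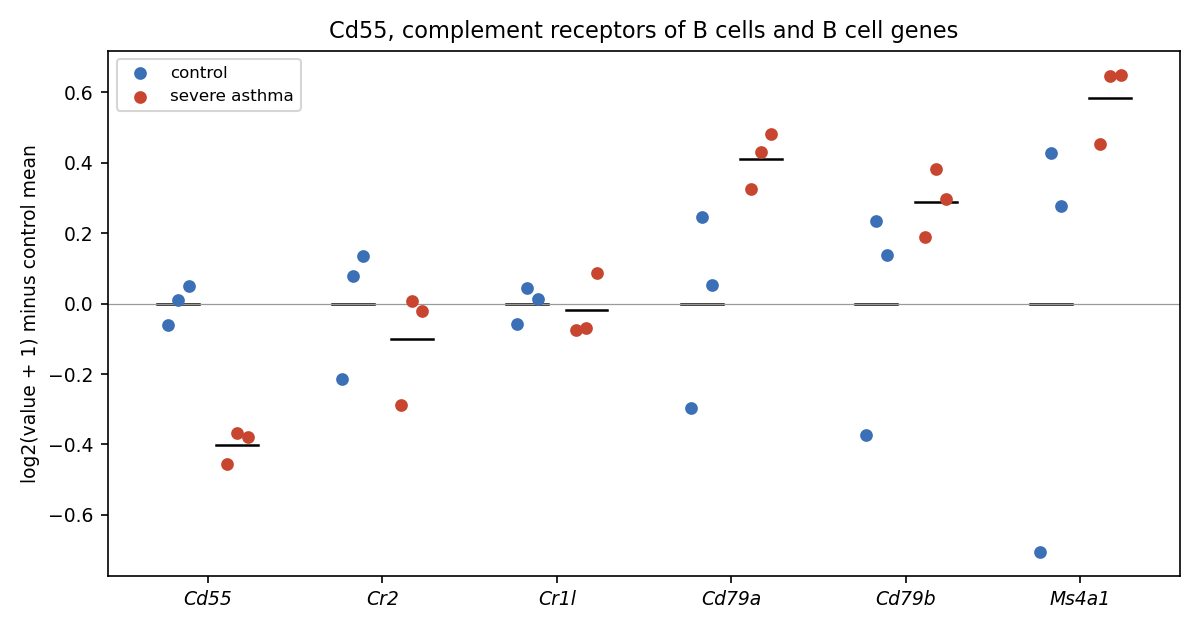
Levels of Cd55, the complement receptor genes Cr2 and Cr1l and 3 B cell genes, as log2(value + 1) minus the mean of the controls. Points are libraries and bars group means (n = 3). Cd55 was the one gene of these 6 with all severe asthma libraries below all controls, while Ms4a1 and Cd79a were above.

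The genes whose profile was nearest to that of Cd55 were Ap1g1, a subunit of the clathrin adaptor AP-1 (root mean square difference 0.025, log2), Zmat1 (0.035) and Chd2, a chromatin remodeller (0.037). Their log2 fold changes were -0.37, -0.35 and -0.34, each past the threshold (adjusted p = 0.00622, 0.0445 and 0.00706).

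Other genes of the cascade were read from a list of 46, of which 45 were in the table and 36 tested. Of these 36, 5 rose and 11 fell, with a median log2 fold change of -0.43, beside 20.7%, 14.4% and 0.06 over all genes. The number of falls dropped to 1 when severe asthma 2 was left out, to 2 when severe asthma 3 was, and to 6 without control 3, and was 7 with limma-voom. Endothelial, epithelial and fibroblast markers were lower in the same libraries (medians -3.27, -2.30 and -1.83), and their part in these falls was not tested.

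The receptors for C3 fragments went separate ways. Itgam and Itgax, the alpha chains of complement receptors 3 and 4, rose by 2.67 and 2.82 on the log2 scale (adjusted p = 0.000223 and 0.0066), and their shared beta chain Itgb2 rose by 1.39 (0.00172). The call of Itgax was lost without both libraries numbered 1 (0.0697), and the 2 alpha chain genes are also in the macrophage lists, which were higher in these libraries. Cr2, which encodes complement receptors 1 and 2 of mouse B cells, stood at 6147 ± 774 in control and 5723 ± 624 in severe asthma (SD, n = 3, log2 fold change -0.10, 95% interval -0.376 to 0.174). Cr1l, the mouse membrane regulator Crry, stood at 1256 ± 46.1 and 1241 ± 81.1 (-0.02, 95% interval -0.191 to 0.153). Neither passed (adjusted p = 0.54 and 0.867), and these intervals exclude changes of the size seen for C1qb or C3ar1. C1qbp, a mitochondrial protein that binds C1q heads, rose by 0.86 (adjusted p = 0.000771), and Cd93, a receptor of endothelium and myeloid cells, fell by 1.09 (0.034, lost without control 3 and without severe asthma 2 or 3, at 0.0688 to 0.104).

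Of the 5 terminal components tested, 3 fell. Hc, the C5 gene, stood at 2534, 648 and 671 in controls 1 to 3 and 203, 44.0 and 57.5 in severe asthma (log2 fold change -3.67, adjusted p = 0.0217). C7 (-4.07, adjusted p = 0.0202) and C6 (-3.01, adjusted p = 0.0109) were likewise highest in control 1, as were the sums of the endothelial, epithelial and fibroblast markers. Each of the 3 calls was lost without severe asthma 2 or 3 (adjusted p 0.0514 to 0.0743), and those of Hc and C7 also without control 1 (0.0697 and 0.0663) and with limma-voom (0.0578 and 0.0623). C8a and C8g, at 4.52 to 43.7 adjusted reads in any library, did not pass, and C8b and C9 were under the filter.

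Among the other regulators, Serping1 (the C1 inhibitor, log2 fold change -2.81, adjusted p = 0.0248), Vtn (vitronectin, -3.33, 0.0201) and Susd4 (-2.15, 0.0347) fell, and each of these calls was lost without severe asthma 2 or 3 (adjusted p 0.0768 to 0.122). The Serping1 call was also lost without control 1 (0.0696) and the Vtn call with limma-voom (0.0768). The Susd4 call was also lost without control 1 (0.0661) or control 3 (0.0571), with neither trend nor robust prior (0.0605) and with limma-voom (0.0641). Clu, the abundant regulator clusterin, did not pass (-1.51, adjusted p = 0.0718). Of the membrane regulators, Cd59a was at 20.3 ± 6.50 in control and 41.0 ± 4.26 in severe asthma (SD, n = 3). This rise (log2 fold change 1.02, adjusted p = 0.0467) lost its call in 11 of 19 alternatives, while Cd46 did not pass (-0.40). In the lectin pathway the protease genes Masp2 (281 ± 38.7 in control, 173 ± 9.58 in severe asthma) and Masp1 fell, by 0.68 and 2.62 on the log2 scale (adjusted p = 0.0098 and 0.0252). Mbl1, a mannose-binding lectin, was at 12.8, 2.00 and 6.41 in controls and had no read in severe asthma (adjusted p = 0.0163). The Masp1 call was lost in 4 of 18 alternatives and so was that of Mbl1, while Masp2 kept its call in all 19. None of the 5 classical pathway genes tested passed, with C1s1 at -1.92 (adjusted p = 0.0762), C4b at -0.93 (0.276), C2 at -0.45, C1ra at -0.14 and C1rl at 0.22. C4b has a near-identical copy, C4a, so its value is uncertain, as are those of Cd59a and Cd59b, which have close relatives.

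**Figure D4:**
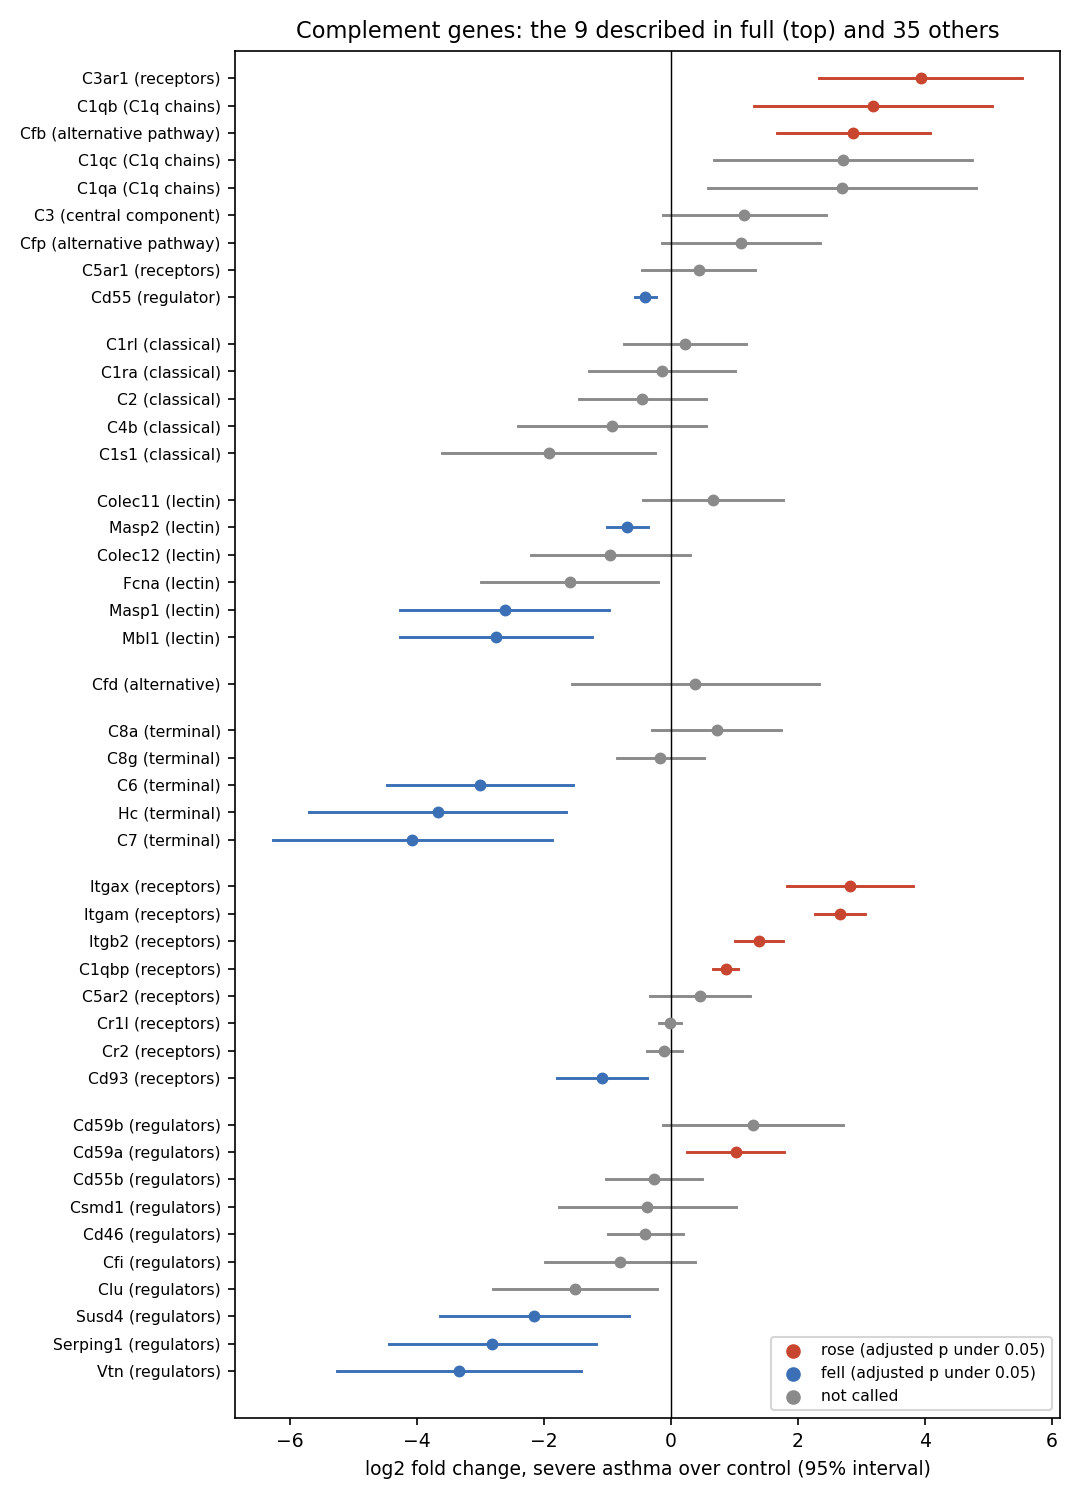
Log2 fold changes of severe asthma over control with 95% intervals from limma (n = 3 and 3), for the 9 genes described in full and for 35 of the 36 other complement genes tested, by role. Red and blue mark genes past an adjusted p of 0.05. The narrowest interval among the 9 is that of Cd55 (-0.562 to -0.240), and the widest belong to the C1q chains.

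In the authors' deposited term tables, the KEGG pathway of complement and coagulation cascades held 32 of the 1153 called genes with a pathway, from a pathway of 93 of 8980 genes (q-value 1.23e-06). It counted C1qa, C1qb, C1qc, Cfb and C3ar1 among them, beside falling genes such as Hc, C7 and Serping1. Of the Gene Ontology terms with complement in their name, none had a q-value under 0.05 in the authors' deposited tables, the smallest being that of regulation of complement activation (0.0648, 5 of 16 genes).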

How the data were processed

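RNA was sequenced from 3 control and 3 severe asthma libraries, with polyadenylated RNA enriched and a NEBNext Ultra kit used, per the labels' protocols. HISAT2 2.1.0, HTSeq 0.11.2, bcl2fastq and mm10 are listed, with no role, in the submitters' processing notes. The authors deposited a library-size-adjusted signal (here adjusted reads) per transcript. The quantile adjustment of edgeR, with 1 dispersion (0.0474), rebuilt 100% of the 440735 values above 0 in the mRNA table within 0.001 from whole reads, although no header names the tool. Per the file headers, the authors also gave log2 fold changes with p-values and q-values.

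Each gene was its transcript of the highest mean, because isoforms share reads. Limma-trend 3.58.1 with robust empirical Bayes (R 4.3.3) was run, two-sided, on log2(value + 1) over the 15759 genes whose mean was 1 or more, taking adjusted p (Benjamini-Hochberg) under 0.05 as a call. Fold changes on this scale understate low genes. edgeR 4.0.16, DESeq2 1.42.0 and limma-voom on the recovered reads were among 19 alternatives. Over the transcript kept per gene, recovered reads came to 16498219 to 18054903 per library. This leaves out other transcripts and is not the whole sequencing depth. Values of few reads carry counting error that limits their precision. Deviations of same-numbered libraries from their group means correlated across genes (0.414, 0.128 and 0.14 for numbers 1 to 3), although control 2 and severe asthma 3 did too (0.179), as did control 3 and severe asthma 2 (0.2). The numbers come from the titles, and no label says that a number marks a shared animal or day, so the block is an alternative. Named were the 9 genes, other complement genes past the threshold and up to 4 of the highest mean among those not past it (Cd46, Cd55b, C8a, C8g, Ms4a7, Trem2 and the rest of the classical pathway are named outside this rule, after their values were seen), the 3 nearest profiles for C1qb, C3 and Cd55, and terms holding the word complement. The rule also covers the 3 most abundant genes of each cell type list, of which only those that a result turns on are printed. Some genes are not reported here. The means of macrophage and of B cell genes each leave out 1 gene of the planned set for this reason, a change made after values were seen, while counts and sums over lists hold all members. The members and lists were chosen with earlier results of these data known.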

Additional observations from a re-analysis of the deposited data

How the results depend on the processing

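Direction was kept by all 9 genes and by the 16 other complement genes that passed, in every alternative run. Over all genes, 3262 rose and 2263 fell. With the same total per library 1922 rose and 3102 fell, on recovered reads edgeR called 2514 and 2481 and DESeq2 2484 and 2889, and the counts ran from 1575 to 3442 risen and from 728 to 2632 fallen when libraries were left out, lowest without severe asthma 2. Of the 9 genes, 3 rose, but 5 did with a minimum mean of 10 and 5 with limma-voom, and 1 (without both libraries numbered 1) to 5 (without control 3) when libraries were left out, while the count that fell was 1 throughout. Of the other complement genes, 11 fell, but 7 with limma-voom and 1 to 13 when libraries were left out, and 4 to 5 rose in all alternatives. With the replicate block (numbers taken as pairs), the call of C1qb was lost (adjusted p = 0.0683), 2 of the 9 genes rose and 1 fell, 14 other complement genes fell and 5 rose, and 3528 genes rose and 2714 fell. The block changed no other call among the 9 genes. C1q relative to the 4 macrophage genes (0.46) turned to -0.022 without both libraries numbered 1, within -0.022 to 0.925 when libraries were left out. With libraries left out, Cd55 relative to the 3 B cell genes ran from -0.976 to -0.630. No value could be given for Mbl1 and Masp1 with a minimum mean of 10. The cause of these changes was not tested. Depth limits C3ar1 in controls 1 and 2, at 6 reads each.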
